A study of Mus musculus with 6 samples.

Results

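NRF2 and its antioxidant targets are described here as 10 genes, given as a list of names, out of 22180 genes with a probe set that carried 1 gene symbol. Nfe2l2 encodes the transcription factor NRF2 and Keap1 encodes its inhibitor. The other 8 genes are textbook NRF2 targets, namely Nqo1, Gclc, Gclm, Me1, Txnrd1, Slc7a11, Srxn1 and Gsr. Each gene was read by the probe set with the highest mean, and all 10 were measured on every array.

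The 6 microarrays came from mouse acute myeloid leukaemia cells of C57BL/6J background, all driven by the fusion oncogene MLL-AF9. The 3 arrays labelled WT read leukaemias without a transgene, and the 3 labelled Evi1 Tg read leukaemias with a transgene for Evi1, a zinc finger transcription factor encoded by Mecom. Each array read total RNA of 10000 sorted green fluorescent cells, labelled as untreated whole leukaemia cells, so both groups share the fusion gene and the fluorescent marker. The sources used here give neither the promoter of the transgene nor the number of mice behind each group, so the spread behind each p-value may be technical. The labels describe methylcellulose culture with cytokines for colony assays and do not say whether the sorted cells had been cultured. The question asked of these genes is whether their RNA differed between Evi1 Tg and WT leukaemia cells.

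NRF2 is a basic leucine zipper factor that is held low in resting cells by KEAP1, the adaptor of a cullin ubiquitin ligase that marks NRF2 for destruction. When oxidants or electrophiles modify KEAP1, NRF2 escapes, pairs with a small MAF protein and binds antioxidant response elements in its target genes. The targets make and recycle glutathione and thioredoxin, supply NADPH and reduce quinones. Because the pathway is switched mainly through NRF2 protein, the level of Nfe2l2 RNA is not a readout of its activity. In myeloid cells the pathway is known for buffering the oxidants that phagocytes make.

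The target genes had lower signal in Evi1 Tg and Keap1 had slightly higher signal, but no member passed the test. By limma with Benjamini-Hochberg adjustment over all genes, at a threshold of 0.05, 0 of 10 members were called, and the same test called 0.113% of all genes. At an unadjusted p under 0.05 there were 5 members, all lower in Evi1 Tg, against 10.3% of all genes in either direction and 17.9% of the 9891 genes above background. The difference (Evi1 Tg minus WT, log2 scale) was below 0 for 9 of 10 members, against 46.5% of all genes. The median over the members was -0.32, over all genes it was 0.012, and over genes above background 0.0021. The members were chosen with earlier results of these data known, so these comparisons are descriptions and not a test. The groups did not overlap for 5 members, 4 of them lower and 1 higher in Evi1 Tg. Over all genes the groups did not overlap for 14.6% (7.47% lower and 7.08% higher), and over genes above background for 19.3%. The smallest adjusted p among the members was 0.198, for Me1, and 325 genes had a smaller p than Me1. A permutation of 3 against 3 arrays can reach no exact two-sided p below 0.1, so single genes were judged by the moderated fit.

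Median intensity lay between 51.6 and 55.4 on the 6 arrays. Mecom read 37.0 in WT and 38.6 in Evi1 Tg, both below the background intensity of 75.2, so it does not check the labels. That background is the 90th percentile of 81 genes silent in blood cells, and all 10 members lay above it. All 11 of 11 defining myeloid genes were above background, against 0 of 7 T and NK cell markers and 0 of 5 B cell markers. Also above background were 3 of 4 megakaryocyte markers, 1 of 5 erythroid markers and 1 of 8 markers of stroma and endothelium. Of the 11 myeloid genes 5 had a log2 difference above 0 and 6 below, and 0 were called. The groups did not overlap for 2 higher genes, Mpo (2.80) and Elane (0.44), and 2 lower, Ptprc (-0.39) and Csf3r (-0.55). Mpo read 92.7, 68.1 and 252.5 on the WT arrays and 1192, 863 and 525 on those of Evi1 Tg (limma adjusted p = 0.139). WT 3 stood with the Evi1 Tg arrays for 23 genes of cell division, with a median deviation from the mean over arrays of 0.33, against -0.56 and -0.68 in WT 1 and WT 2 and 0.26 to 0.37 in Evi1 Tg.

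**Figure D1:**
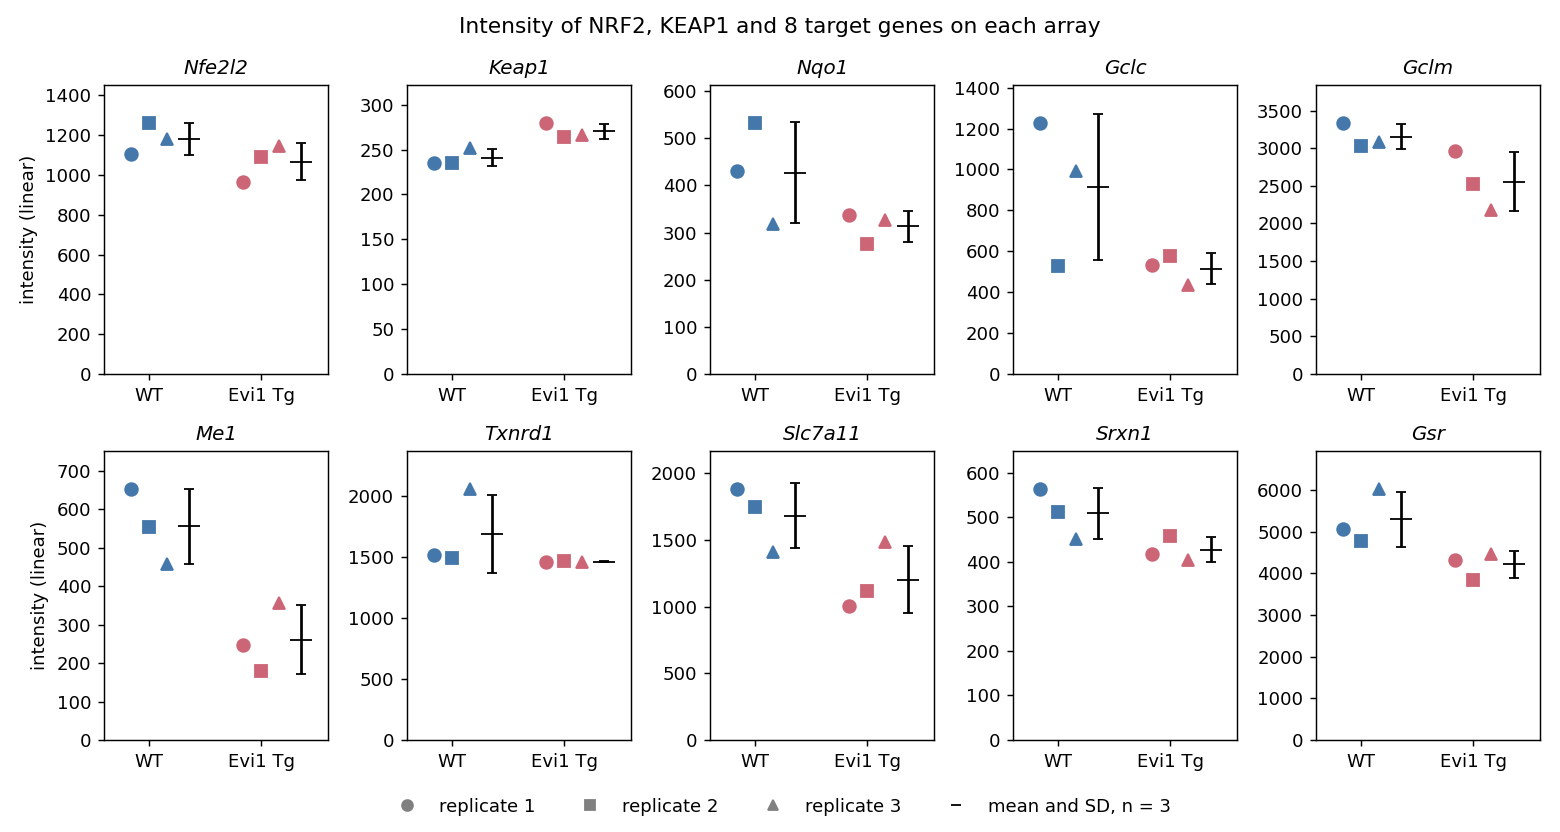
Intensity (linear scale, from 0) of each of the 10 genes on the 3 WT arrays (blue) and the 3 Evi1 Tg arrays (red), with marker shape for the replicate number and a bar for mean and SD (n = 3). Me1, Gclm, Gsr and Txnrd1 have every Evi1 Tg array below every WT array, Keap1 has every Evi1 Tg array above, and the other 5 genes overlap.

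The regulators showed small differences. Nfe2l2 read 1102, 1262 and 1179 on the WT arrays and 962, 1091 and 1142 on those of Evi1 Tg. The groups overlapped, since Evi1 Tg 3 lay above WT 1. The means were 1181 ± 79.9 in WT and 1065 ± 92.8 in Evi1 Tg (SD, n = 3 each), a log2 difference of -0.15 (SE 0.0999, 95% interval -0.39 to 0.086, limma adjusted p = 0.696). Without Evi1 Tg 1 the Nfe2l2 difference was -0.078. Keap1 read 235, 235 and 252 on the WT arrays and 279.9, 264 and 266 on those of Evi1 Tg, so that all Evi1 Tg arrays lay above all WT arrays by a narrow margin. Its log2 difference was 0.17 (SE 0.0779, 95% interval -0.018 to 0.35, limma adjusted p = 0.535), from a mean of 241 ± 9.66 to 270.2 ± 8.46. A second Keap1 probe set, close to background, read 82.2, 86.0 and 73.8 on the WT arrays and 81.5, 90.2 and 74.7 on those of Evi1 Tg. With both probe sets averaged the Keap1 difference was 0.0955 and the groups overlapped.

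The 3 genes whose pattern over the 6 arrays was most like that of Nfe2l2, among 9891 genes above background, were Arfgef2 (Pearson r = 0.992), Lrrc8b (0.986) and Myd88 (0.975). These are descriptions over 6 arrays, and with so many genes ranked a high r is found for many patterns. Lrrc8b, a subunit of a volume-regulated anion channel, had a log2 difference of -0.40, and Myd88, an adaptor of Toll-like receptors, one of -0.16.

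Several targets carry the letters of an antioxidant response element near their start, and 4 of these stretches are shown for members described in the following paragraphs. RefSeq windows of assembly GRCm38.p6, from 250 bases before to 50 bases after a transcription start, were found for 8 members, and Gclc and Gsr had no entry. The core TGANNNNGC was searched on both strands and lay in the windows of 7 of these 8 members, all but Nqo1. Sequence outside the windows was not searched. It is common, as 41.3% of 32851 windows of the same length hold it, and some members have several windows (11 in all, of which 8 hold it). The stricter form TGANTCAGC, chosen after the sequences were seen, occurs in 1.19% of windows, and among the members in those of Me1 and Srxn1. The core with a further A at its 3′ end, found in 13% of windows, lay in those of Keap1, Txnrd1, Slc7a11 and Srxn1. In the first 3 stretches capitals mark matches to the core. In the Slc7a11 stretch they mark TGATGNAA, a core of the element bound by C/EBP and ATF factors such as ATF4, also chosen after the sequences were seen and found in 3.97% of windows. The second Slc7a11 match overlaps a match to TGANNNNGC. Each stretch runs 5′ to 3′ on the strand of the gene, and a match on the opposite strand appears as its reverse complement. A match is a run of letters and was not tested as a binding site.
Me1 (chr9:86695912-86695954, minus strand, positions -40 to 3 around the start): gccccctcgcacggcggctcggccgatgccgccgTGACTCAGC
Srxn1 (chr2:152105454-152105513, plus strand, positions -70 to -11): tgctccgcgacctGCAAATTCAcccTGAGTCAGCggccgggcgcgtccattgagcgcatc
Gclm (chr3:122245397-122245456, plus strand, positions -160 to -101): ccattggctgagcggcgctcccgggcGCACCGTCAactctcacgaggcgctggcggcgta
Slc7a11 (chr3:50443639-50443698, minus strand, positions -85 to -26): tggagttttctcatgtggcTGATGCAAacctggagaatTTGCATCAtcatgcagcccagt

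Me1, the cytosolic malic enzyme that makes NADPH from malate, had the largest difference among the members. It read 654, 555 and 458 on the WT arrays and 248, 179 and 356 on those of Evi1 Tg. Every Evi1 Tg array lay below every WT array, with Evi1 Tg 3 closest to WT. The mean was 556 ± 98.0 in WT and 261 ± 89.6 in Evi1 Tg, and the log2 difference was -1.13 (SE 0.254, 95% interval -1.73 to -0.53, limma adjusted p = 0.198), or 2.19-fold lower. The difference lay between -1.385 and -0.89 when any 1 array was left out, with the smallest size without Evi1 Tg 2. Me1 carries the stricter element, across its start, in the stretch shown above.

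Glutathione synthesis begins with import of cystine and with the ligase that joins glutamate to cysteine. Slc7a11, the light chain of the cystine importer, read 1886, 1749 and 1411 on the WT arrays and 1005, 1119 and 1487 on those of Evi1 Tg. WT 3 and Evi1 Tg 3 overlapped, and the other arrays were apart. Its log2 difference was -0.49 (SE 0.173, 95% interval -0.90 to -0.083, limma adjusted p = 0.388). A second, dimmer Slc7a11 probe set read 186, 141 and 123 against 109, 120.0 and 176, and the mean over both gave -0.33. Slc3a2, the heavy chain that carries the importer to the membrane, had a difference of -0.13 (SE 0.108) and overlapping groups.

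Gclc is the catalytic and Gclm the modifier subunit of glutamate-cysteine ligase, and they differed in spread. Gclc read 1229, 526 and 993 on the WT arrays and 535, 578 and 434 on those of Evi1 Tg. WT 2 lay among the Evi1 Tg arrays, so that the WT arrays ranged over 2.34-fold and the Evi1 Tg arrays over 1.33-fold. The log2 difference of Gclc was -0.75 (SE 0.301, 95% interval -1.46 to -0.043, limma adjusted p = 0.454), and it was -1.11 without WT 2 and -0.50 without WT 1. Gclm read 3339, 3027 and 3085 on the WT arrays and 2964, 2525 and 2182 on those of Evi1 Tg, with no overlap. Its log2 difference was smaller, at -0.31 (SE 0.124, 95% interval -0.60 to -0.018, limma adjusted p = 0.453), and it was -0.20 without Evi1 Tg 3. Whether the subunits differed in their response was not tested.

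Gsr, glutathione reductase, returns oxidised glutathione to its reduced form with NADPH. It read 5074, 4769.7 and 6034 on the WT arrays and 4323, 3845 and 4474 on those of Evi1 Tg, and the groups did not overlap. The mean was 5293 ± 659.9 in WT and 4214 ± 328 in Evi1 Tg, a log2 difference of -0.32 (SE 0.116, 95% interval -0.60 to -0.051, limma adjusted p = 0.395). Without WT 3, its highest array, the difference was -0.23.

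The thioredoxin genes showed the smallest shifts among the targets. Txnrd1, the cytosolic thioredoxin reductase, read 1516, 1493 and 2061 on the WT arrays and 1459, 1467 and 1463 on those of Evi1 Tg. The Evi1 Tg arrays were nearly identical (SD 4.10), and only WT 3 stood clearly above them. The log2 difference was -0.19 (SE 0.134, 95% interval -0.51 to 0.13, limma adjusted p = 0.720), and without WT 3 it was -0.041. Srxn1, sulfiredoxin, repairs over-oxidised peroxiredoxins and has the stricter element upstream of its start. It read 564, 511 and 450.1 on the WT arrays and 417, 458 and 405 on those of Evi1 Tg, with WT 3 just below Evi1 Tg 2. Its log2 difference was -0.25 (SE 0.108, 95% interval -0.50 to 0.0071, limma adjusted p = 0.501).

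Nqo1, a quinone reductase often used as a marker of NRF2 activity, read 431, 533 and 317 on the WT arrays and 337, 276 and 327 on those of Evi1 Tg. WT 1 and WT 2 were high, and WT 3 fell within the range of Evi1 Tg. The log2 difference was -0.42 (SE 0.191, 95% interval -0.87 to 0.031, limma adjusted p = 0.521). It was -0.62 without WT 3 and -0.24 without WT 2.

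**Figure D2:**
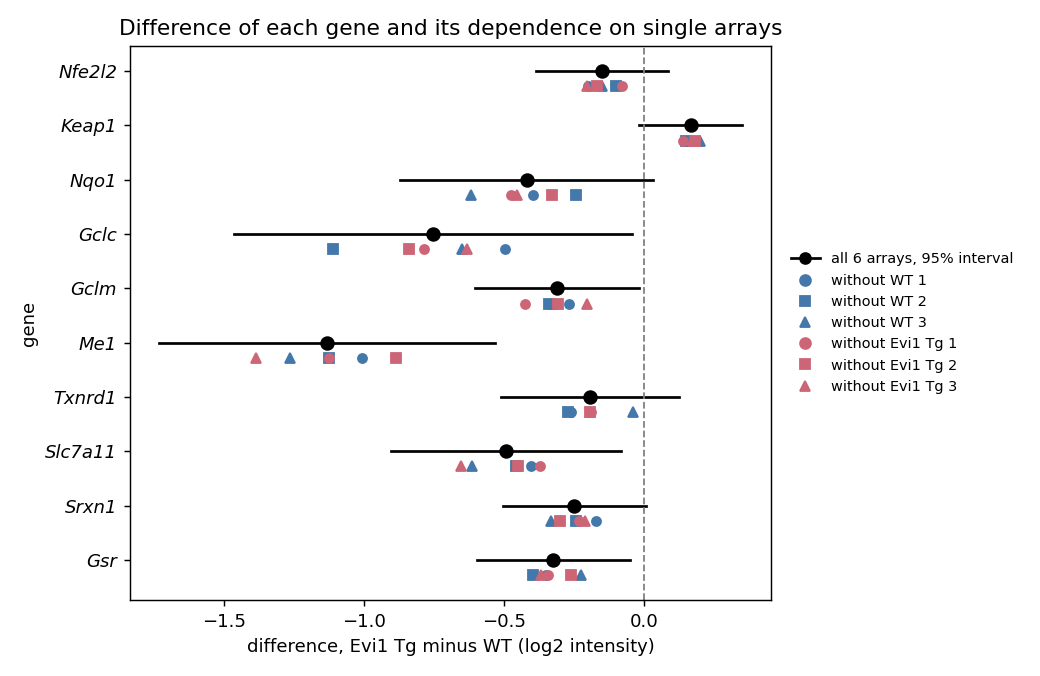
Log2 difference of each gene, Evi1 Tg minus WT, with its 95% interval over all 6 arrays (black), and the difference with 1 array left out (coloured markers). Every marker of Keap1 lies above 0 and every marker of the other 9 genes below 0, while Txnrd1 without WT 3 is close to 0 at -0.041.

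Seen by array, the members separated the groups in their median and not in every gene. The median deviation of the 10 members from their means over arrays was 0.25, 0.12 and 0.10 in WT 1, 2 and 3, and -0.14, -0.18 and -0.085 in Evi1 Tg 1, 2 and 3. WT 3 therefore lay on the WT side for these genes, unlike for the genes of cell division. The highest array of a gene was WT 1 for 5 members, WT 2 or WT 3 for 2 each, and Evi1 Tg 1 for Keap1. Different genes were high on different WT arrays. Gclc, Txnrd1 and Gsr were high in WT 3, where Nqo1, Slc7a11 and Srxn1 were at or near the Evi1 Tg level. Over the 6 arrays Me1 and Slc7a11 had a Pearson r of 0.912, Txnrd1 and Gsr one of 0.839, Gclc and Gclm one of 0.74, and Keap1 and Slc7a11 one of -0.902. These correlations share the difference between the groups and are descriptions over 6 arrays.

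Markers of mature cells varied between arrays. The summed intensity of 8 macrophage markers, of which 3 were above background, ranged from 1860 to 2582 in WT and from 892 to 2003 in Evi1 Tg, through Adgre1 (log2 difference -1.13) and Vcam1 (-1.32). The other 6 markers did not share this direction as a group, since 5 of the 8 had a difference above 0, among them Mertk (0.053), and the list median was 0.051. C1qa, C1qb, C1qc and Cd163 were not above background in either group. By array the macrophage sum was 2582, 2519 and 1860 in WT 1, 2 and 3 and 1168, 892 and 2003 in Evi1 Tg 1, 2 and 3. Me1 and Slc7a11 were also lowest in Evi1 Tg 1 and Evi1 Tg 2, whereas Gclc, Gclm and Srxn1 were lowest in Evi1 Tg 3. The 10 late neutrophil markers, 7 of them above background, summed to between 4162.5 and 12958 in WT and between 4003 and 11142 in Evi1 Tg, highest in WT 2 and Evi1 Tg 3. All 10 of 10 markers of eosinophils, basophils and mast cells had a difference below 0, with a median of -0.32, 0 called and 3 above background. Their summed intensity ranged from 552.5 to 1400 in WT and from 459.8 to 562 in Evi1 Tg, and by array it was 552.5, 1400 and 902 in WT 1, 2 and 3. Siglecf had a difference of -0.93 (SE 0.244), while Cpa3 was raised in WT 2 (621) and WT 3 (239) and at background on the other arrays. The part of these cells in the members' values was not tested. In bulk RNA, fewer cells of a type and less RNA per cell cannot be told apart.

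**Figure D3:**
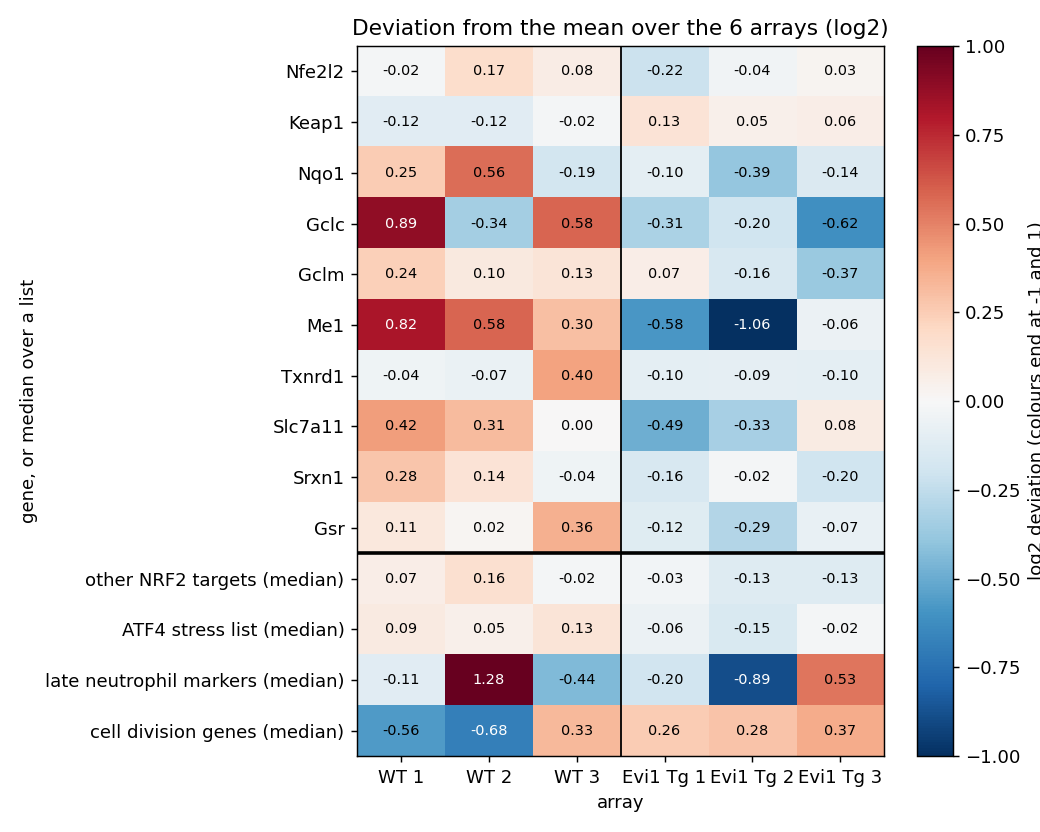
Deviation of each of the 10 genes from its mean over the 6 arrays (log2, red above and blue below 0), and the same as a median over 4 lists below the thick line. Me1 is above its mean on all WT arrays (0.82, 0.58 and 0.30) and below it on all Evi1 Tg arrays, whereas the cell division genes put WT 3 (0.33) with the Evi1 Tg arrays.

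Other genes of the pathway were examined in 8 lists, which held 132 measured genes beside the members. With limma, 0 of them passed in either direction, and 0 passed without moderation of the variance. Before adjustment 29 had a lower and 7 a higher signal in Evi1 Tg at p under 0.05, where over all genes 5.8% were lower and 4.5% higher. Most of the listed genes lay above background, and over all genes above background 17.9% were under 0.05 in either direction. The difference was below 0 for 92 of the 132, and their median was -0.13. Leaving out WT 3 brought 8 of these genes past the threshold, namely Hmox1 (-1.47), Blvrb (-0.69), Sesn2 (-1.04) and Ddit4 (-0.79) lower, and Palb2 (0.63), Slc1a5 (0.74), Shmt2 (1.04) and Mthfd1 (0.60) higher. In that setting 2.51% of all genes passed, and 0 members. With array weights Ddit4 (limma adjusted p = 0.0293) and Sesn2 (limma adjusted p = 0.0397) passed.

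Among 17 measured partners and regulators of NRF2, 11 had a difference below 0 and 6 above, with a median of -0.054 (-0.017 without Evi1 Tg 2) and 0 called. Mafg, a small MAF protein that pairs with NRF2 on DNA, read 234, 288 and 230.2 on the WT arrays and 166, 170.4 and 197 on those of Evi1 Tg. These arrays did not overlap, and the difference was -0.49 (SE 0.120, limma adjusted p = 0.231). Btrc, a receptor of the KEAP1-independent ligase for NRF2, had -0.28 (SE 0.106). Cul3, the scaffold of the KEAP1 ligase, had -0.037, and Bach1, a repressor at the same elements, -0.054.

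Of 26 other reported targets 21 were below 0, with a median of -0.15 and 0 called. Hmox1, which encodes haem oxygenase 1, read 1825, 2149 and 1282 on the WT arrays and 906, 782 and 513 on those of Evi1 Tg (difference -1.26, SE 0.258, limma adjusted p = 0.178). The lowest WT array was above the highest Evi1 Tg array. Aox1, an aldehyde oxidase, had a difference of -0.82 (SE 0.180), with an Evi1 Tg mean of 55.7, below background, which bounds it.

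In the list of glutathione genes 18 of 24 were below 0, with a median of -0.13 that was -0.032 without WT 3. Chac1, which degrades glutathione, had -0.45 (SE 0.101, limma adjusted p = 0.195) and Oplah, which recycles 5-oxoproline, -0.32 (SE 0.0853). Both values are bounded by background, as the Evi1 Tg mean lay just below it for Chac1 and was 65.3 for Oplah. In the thioredoxin and peroxiredoxin list 10 of 15 were below 0, with a median of -0.26 that was -0.14 without Evi1 Tg 2. Sesn2 had -0.94 (SE 0.134, limma adjusted p = 0.0772) and Sesn3 -0.48 (SE 0.114), both sestrins that restrain mTORC1, and the Sesn3 value is bounded by background (Evi1 Tg mean 55.0). Neither list had a called gene.

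NADPH supply was divided, with 9 of 17 genes below 0, 8 above and a median of -0.018. That median was not stable, at -0.086 without WT 1, -0.12 without WT 2, -0.094 without Evi1 Tg 3 and -0.15 with dim genes left out. Idh1, the cytosolic isocitrate dehydrogenase, had -0.57 (SE 0.151), and Idh2, its mitochondrial counterpart, 0.35 (SE 0.0767, limma adjusted p = 0.195). Each had groups that did not overlap. The list for superoxide and peroxide removal also holds Nqo2, a quinone reductase. Of its 6 genes 5 were below 0, with a median of -0.073 (-0.025 without WT 2, -0.031 without WT 1 and -0.15 without WT 3). Here Nqo2 had -0.41 (SE 0.164) and Sod2 -0.38 (SE 0.223). For the NADPH oxidase, the phagocyte source of superoxide, 7 of 9 were below 0, with a median of -0.20 (-0.11 without Evi1 Tg 2, -0.095 without WT 2), and 5 of the 9 lay above background. Here Cybb, its catalytic subunit, had -0.46 (SE 0.175) and the GTPase Rac2 -0.24 (SE 0.102).

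The ATF4 and amino acid stress list shares Slc7a11 with the members, since the importer is also a target of ATF4. Of its 23 genes 15 were below 0 and 8 above, with a median of -0.21, and 0 were called. Among those above 0 was Shmt2 (0.78, SE 0.237), whose groups did not overlap. Ddit4, an mTORC1 inhibitor induced by stress, read 136, 144 and 128 on the WT arrays and 74.6, 85.7 and 83.6 on those of Evi1 Tg (difference -0.74, SE 0.0932, limma adjusted p = 0.0595). Its Evi1 Tg values lay close to the background of 75.2, with Evi1 Tg 1 below it. In its median the list deviated by 0.094, 0.047 and 0.13 on the WT arrays and by -0.055, -0.15 and -0.020 on those of Evi1 Tg. It thus had the same sign by array as that of the 10 members. The thioredoxin and peroxiredoxin list, which also holds Sesn2, had these signs too. Its medians were 0.021, 0.052 and 0.25 on the WT arrays and -0.065, -0.12 and -0.015 on those of Evi1 Tg. The remaining pathway lists differed in sign on some array. Among them were other reported NRF2 targets (-0.022 in WT 3), glutathione genes (0.029 in Evi1 Tg 3) and NADPH oxidase (0.015 in Evi1 Tg 3). Several of these medians lay close to 0, and a link between the lists and the members was not tested.

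**Figure D4:**
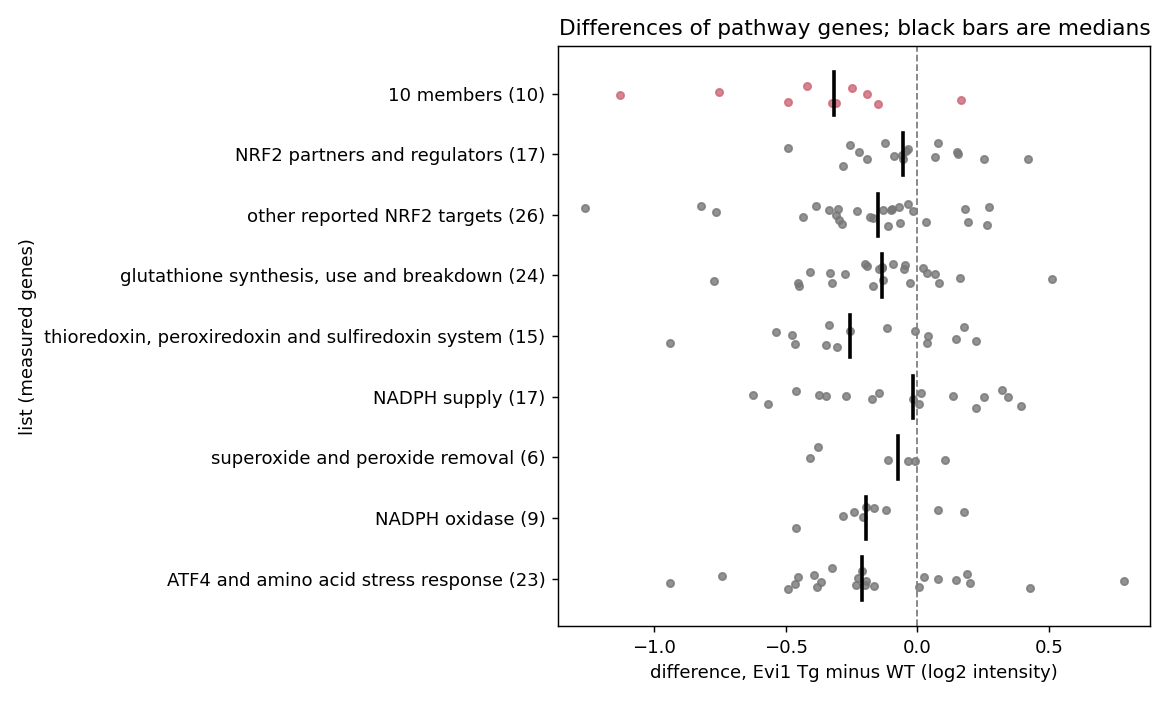
Log2 difference, Evi1 Tg minus WT, of each measured gene in the 10 members (red) and in 8 pathway lists (grey), with black bars for medians. With all 6 arrays the medians run from -0.32 for the members to -0.018 for NADPH supply. The order of the lists, including which is nearest 0, changes when single arrays are left out.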

How the data were processed

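The authors deposited 1 table of intensity values for 34351 probe sets on 6 arrays. Their range (all positive, far above log values) shows a linear scale. The sources used here do not name the background correction, normalization or summarisation, and normalization between arrays can hide a shift shared by most genes. Per the labels' protocols, biotinylated cDNA was made with the GeneChip WT PLUS kit.

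Probe sets were named through the platform annotation and RefSeq (GRCm38.p6). Of these, 23521 had 1 symbol, 1814 several and 9016 none. For each gene the probe set with the highest mean was kept, values were log2 transformed without pseudocount, and 22180 genes were fitted in R 4.3.3 by limma 3.58.1 (lmFit, eBayes). Benjamini-Hochberg adjustment ran over all genes. SE and intervals are moderated. The procedure was tested on simulated data.

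The members and lists were chosen with earlier results of these data known. All members were named, and of each list the called genes or else the 2 with the smallest p. Slc3a2, Cul3, Bach1, single marker genes, genes called without WT 3, and the isoenzymes Me2, Me3 and Txnrd2 were named after their values were seen. Markers of other cells, 16 alternative settings and a pairing check by replicate number were also run. Figures used matplotlib 3.10.9.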

Additional observations from a re-analysis of the deposited data

How the results depend on the processing

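All 160 of 160 refits of single members (10 genes under 16 alternatives) kept their direction, and no member passed the threshold in any of them. Part of the count on direction was fixed in advance. Leaving out dim genes, trend and robust settings, the replicate block and no moderation change only the SE and p. The mean over probe sets changes the difference only for Keap1 and Slc7a11, which have a second probe set. The smallest adjusted p of a member was 0.0704, for Me1 without WT 3, and over its alternatives Me1 ranged up to 0.571. Over its alternatives Nqo1 ranged from 0.0784 (without WT 3) to 0.896 and Gclc from 0.0986 (without WT 2) to 0.776. The median of the members lay between -0.36 and -0.29, and 9 of 10 were below 0 throughout. With 1 array left out, 4 to 7 members had separate lower groups, with 7 reached without WT 3, where fewer arrays make separation easier. The share over all genes was not counted in these settings, so these counts cannot be read as a result about the members. Keap1 lost its separation with median centring and with the mean over probe sets, which left 0 members separate and higher. The counts over all genes, 23 lower and 2 higher, were 2 to 173 and 0 to 383 with 1 array left out. They were 82 and 32 with array weights, 9 and 0 with a pseudocount of 16, 0 and 0 without moderation, and 6 and 0 with Evi1 Tg 1 and 2 averaged. The higher count was 6 with dim genes left out and 6 with trend and robust settings. The replicate block gave 9 lower and 0 higher genes and no called member. The numbers were not taken as pairing, since the deviations of same-numbered arrays correlated at 0.189, -0.185 and 0.0614 (Pearson r across genes). The members lay above background, and 3 arrays a group limit the precision.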

Other observations

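A few isoenzymes of the members or of their lists are given here, chosen after the values were seen, and the contrast between them was not tested. The mitochondrial malic enzyme Me2 read 579, 725 and 805 on the WT arrays and 894, 935 and 918 on those of Evi1 Tg (log2 difference 0.39, SE 0.128, limma adjusted p = 0.350), where the cytosolic Me1 had -1.13. All Evi1 Tg arrays of Me2 lay above all WT arrays. Me3, the other mitochondrial form, was below background in both groups (means 41.5 and 49.8). Idh1 read 1621, 1209.8 and 1660.1 on the WT arrays and 1145, 924 and 946 on those of Evi1 Tg, and Idh2 read 748, 719 and 769.6 on the WT arrays and 981, 928 and 934 on those of Evi1 Tg. For Txnrd2, the mitochondrial thioredoxin reductase, the difference was 0.18 (SE 0.101, limma adjusted p = 0.632) with overlapping groups. Cytosolic Sod1 (-0.11, SE 0.111) and mitochondrial Sod2 (-0.38, SE 0.223) had the same sign. Cytosolic Nadk had -0.46 (SE 0.145), and mitochondrial Nadk2 had -0.018 (SE 0.244), too close to 0 to give a direction.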
